A study of Mus musculus with 12 samples.

Results

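The chemokines of the gut mucosa described here are 10 genes of the 44205 in the expression table, found by gene name: the inflammatory chemokines Ccl2, Ccl7, Cxcl9, Cxcl10 and Ccl5 and the homeostatic or lymphoid chemokines Cxcl13, Ccl19, Ccl20, Ccl25 and Ccl28. They were read in the ileum, the last stretch of the small intestine, of 12 C57BL/6 mice aged 16 weeks, with 3 mice in each of 4 diet groups and 1 library per mouse. Mice of the HF-Sugar group (the Western diet) ate a high-fat diet with 60% of the energy as fat and drank 23% (w/v) sugar, HF mice ate the high-fat diet with plain water, NF-Sugar mice ate a normal-fat diet with the sugar drink, and NF mice ate the normal-fat diet with plain water. All mice went on their diet at 6 weeks of age and stayed on it for 10 weeks, and all groups share the strain and the tissue. Expression was given as RPKM, a read count divided by the length of the exons and by the size of the library, which allows levels to be compared between genes.

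Chemokines are small secreted proteins that bind receptors on leukocytes and direct their movement. Inflammatory chemokines are induced by cytokines such as interleukin-1, tumor necrosis factor and interferon-gamma and bring monocytes and effector T cells into tissue, whereas homeostatic chemokines are made steadily and place lymphocytes in the gut wall and its follicles. Ccl25 is known as the small intestinal ligand that draws T cells and plasma cells carrying Ccr9, and Ccl20 as the product of the epithelium over lymphoid follicles.

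Library depth, recovered from the steps between low RPKM values, was 15.3 to 39.0 M reads, and 73.1% to 81.2% of them fell in annotated genes. On the first principal component (39.7% of the variance) 4 libraries, 1 per group, stood apart from the other 8: HF-Sugar replicate 2, HF replicate 2, NF-Sugar replicate 1 and NF replicate 2, with 73.1% to 73.7% of reads in genes against 76.9% to 81.2%. Those 4 libraries also had the lowest summed ileum markers, 2920 to 3130 RPKM against 3310 to 10300 RPKM in the other 8, and the part of this in the results was not tested. Of the 5 ileum and 7 epithelium marker genes, all were detected and tested. A second feature of the table touches some chemokines. Turned back into reads, most values were whole numbers, but among genes that were whole (within 0.1 read, at most 300 reads) in the 9 libraries of the other groups, 188 of 25067 (0.75%) had a fraction of a read in HF-Sugar and 493 of 25372 (1.94%) in NF. The shares were 0.722% in HF and 0.679% in NF-Sugar. Of 17 values written with 7 significant digits, 12 were in HF-Sugar libraries and 5 in NF libraries, and none was a value of the 10 chemokines.

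The members spanned a wide range of levels. By the mean over 12 libraries, Ccl25 was the highest at 43.5 RPKM, followed by Ccl5 at 14.4, Ccl28 at 6.04 and Cxcl13 at 3.82 RPKM. Cxcl9 (1.7), Cxcl10 (1.56), Ccl20 (1.54) and Ccl19 (1.29 RPKM) lay close together, with ranges over the libraries that overlapped. Ccl2 at 0.591 RPKM and Ccl7 at 0.152 RPKM were the lowest. Spread was mostly larger among the lower members. The highest library was 1.8 times the lowest for Ccl25 and 1.7 times for Cxcl13, against 10.7 times for Cxcl10 and 31.1 times for Cxcl9. For Ccl2 it was 28.8 times the lowest library above 0. Ccl19, at 2.58 times, departed from this.

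Each gene was tested where at least 3 libraries reached 0.5 RPKM, which 17662 genes did. Of the 10 members 9 passed. Ccl7 did not, and Ccl2 passed only through the 3 HF-Sugar libraries, so that a difference for it was built into its passing. The test was limma on log2(RPKM + 1), with a Benjamini-Hochberg adjusted p under 0.05 over all 17662 genes, and all differences below are on that scale. Because 1 RPKM is added, such a difference understates the change of low genes. As tissue was sequenced whole, fewer cells of a type and less RNA per cell cannot be told apart.

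**Figure D1:**
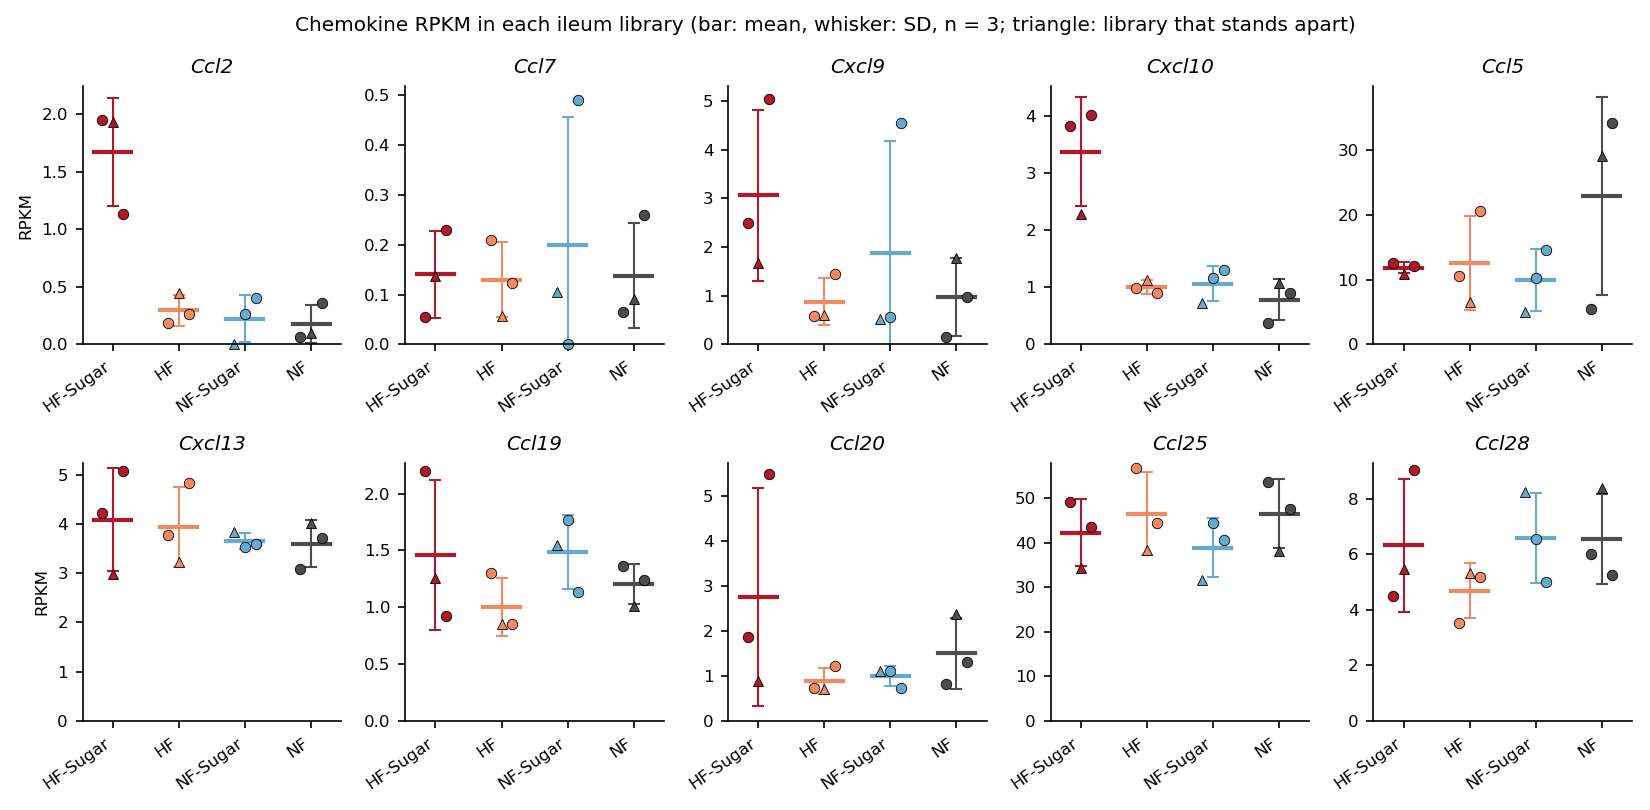
RPKM of the 10 chemokines (vertical axes, linear, each panel with its own scale) in the 4 diet groups (horizontal axes), with 1 point per library, a bar for the mean and a whisker for the SD of 3 libraries (whiskers end at the axis where they would pass 0), and triangles for the libraries that stand apart. The 3 HF-Sugar points of Ccl2 (1.13 to 1.95) and of Cxcl10 (2.28 to 4.01) sit above every other point in their panels, while the groups overlap for Ccl7, Cxcl13, Ccl19, Ccl20, Ccl25 and Ccl28.

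In HF-Sugar against NF, the comparison of the full Western diet with the normal diet, Ccl2 and Cxcl10 were the members whose groups did not overlap, both higher in HF-Sugar, and neither passed the adjusted threshold. Over all genes 0% were called by limma at an adjusted p under 0.05 (734 of 17662 had an unadjusted p under 0.05, and limma-voom on recovered reads called 0 of 16887). Of the 9 tested members 0 were called and 2, Ccl2 and Cxcl10, had an unadjusted p under 0.05. Non-overlap with higher HF-Sugar values held for 2 of 9 members against 7.21% of all genes tested, and with lower HF-Sugar values for 0 of 9 members against 2.97%. Ccl2 reached the filter in HF-Sugar alone, so its non-overlap was fixed by its passing, and without it the count was 1 of 8.

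Ccl2 (chr11:82035571-82037453, plus strand, GRCm38), which encodes the main attractant of monocytes that carry Ccr2, was at 1.95, 1.93 and 1.13 RPKM in the HF-Sugar libraries (50, 60 and 21 reads). It stood at 0.184, 0.447 and 0.261 RPKM in HF, at 0, 0.261 and 0.403 RPKM in NF-Sugar, and at 0.0676, 0.0958 and 0.364 RPKM in NF. The lowest HF-Sugar library was thus above the highest of the other 9, and HF, NF-Sugar and NF overlapped one another. The 0 in NF-Sugar replicate 1 allows up to 3 reads, or 0.111 RPKM, by counting error alone. Group means were 1.67 ± 0.465 RPKM in HF-Sugar and 0.176 ± 0.164 in NF (SD, n = 3 each), a ratio of 9.5. The difference was 1.18 ± 0.18 (SE), which ranked 4 by p among all genes, with a limma adjusted p of 0.195 (unadjusted 4.42e-05). An exact permutation test (two-sided) could go no lower than p = 0.1 with 3 libraries on each side, and gave 0.1. On recovered reads limma-voom gave a log2 difference of 3.47 ± 0.79 (adjusted p = 0.939), and a pseudocount of 0.1 gave 2.78 ± 0.60 (adjusted p = 0.998). All 12 values of Ccl2 were whole numbers of reads. The annotation places Gm17268 on the opposite strand over Ccl2, and whether the counting used strand is not given in the sources used here.

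Ccl7 (chr11:82045712-82047525, plus strand) encodes a second monocyte attractant and lies 8258 bases from Ccl2, yet did not share its levels. It was at 0.0554, 0.137 and 0.23 RPKM in HF-Sugar, at 0.209, 0.0577 and 0.124 RPKM in HF, at 0.105, 0 and 0.491 RPKM in NF-Sugar, and at 0.0641, 0.0908 and 0.259 RPKM in NF. These values rest on 0 to 6 reads a library, and the groups overlapped in every pair. A difference between groups was not detectable at this depth, and the 0 in NF-Sugar replicate 2 allows up to 0.185 RPKM.

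Cxcl9 and Cxcl10, both ligands of Cxcr3 that interferon-gamma induces and that draw activated T cells and natural killer cells, lie 18558 bases apart on chromosome 5. Their promoters are shown because both are known interferon-gamma targets, Cxcl10 being a member that lay apart in HF-Sugar and Cxcl9 its neighbour. The sequences are the 250 bases before the start of each gene in RefSeq (build GRCm38.p6, minus strand, written 5′ to 3′), and capitals mark matches on either strand to an NF-kB motif (GGGANNTNC) or an interferon-stimulated response element, ISRE (TTTCNNTTT).
Cxcl10, chr5:92348890-92349139: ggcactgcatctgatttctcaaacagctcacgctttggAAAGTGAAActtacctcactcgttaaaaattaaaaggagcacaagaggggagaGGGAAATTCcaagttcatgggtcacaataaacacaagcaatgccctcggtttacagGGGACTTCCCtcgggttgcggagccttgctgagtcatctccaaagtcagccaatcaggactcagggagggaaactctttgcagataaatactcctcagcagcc
Cxcl9, chr5:92328080-92328329: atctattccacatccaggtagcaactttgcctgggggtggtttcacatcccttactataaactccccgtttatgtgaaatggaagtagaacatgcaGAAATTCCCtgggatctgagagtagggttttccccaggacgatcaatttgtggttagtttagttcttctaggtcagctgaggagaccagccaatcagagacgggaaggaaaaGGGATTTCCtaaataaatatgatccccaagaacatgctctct
The Cxcl10 window held 1 ISRE match and 3 NF-kB matches, of which 2 overlap each other by all but 1 base, and the Cxcl9 window held 2 NF-kB matches and 0 ISRE matches. Of the 7 members with a promoter in the table, Ccl19 and Ccl28 had 1 ISRE match each and 0 NF-kB matches, while Ccl20, Cxcl13 and both Ccl25 starts had 0 of either. None held the GAS letters TTCNNNGAA. Among all 32851 promoter windows of 250 bases, 12.5% held the NF-kB letters, 9.37% the ISRE letters and 7.02% the GAS letters. A match says only that these letters occur. Ccl2, Ccl7 and Ccl5 were not matched in the promoter table.

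Cxcl10 (chr5:92346638-92348889, minus strand) was at 3.83, 2.28 and 4.01 RPKM in the HF-Sugar libraries. It was at 0.985, 1.13 and 0.901 RPKM in HF, at 0.728, 1.16 and 1.31 RPKM in NF-Sugar, and at 0.376, 1.07 and 0.901 RPKM in NF. All 3 HF-Sugar libraries lay above the other 9, whose groups overlapped. The means were 3.37 ± 0.951 RPKM in HF-Sugar and 0.781 ± 0.36 in NF (SD, n = 3 each), a ratio of 4.32. The difference was 1.26 ± 0.19 (SE), rank 3 by p, with a limma adjusted p of 0.195 (unadjusted 4.13e-05), and the exact permutation test gave p = 0.1. In HF-Sugar replicates 1 and 2 the Cxcl10 values were no whole numbers of reads (194.41 and 140.68), whereas replicate 3 had 147.00 reads and the other 9 libraries were whole within 0.1. An exon of Art3 on the opposite strand overlaps the 3′ end of Cxcl10. The summed reads of both genes were whole in NF-Sugar replicate 2 (52.94 and 132.06 reads, sum 185.00) and not in HF-Sugar replicates 1 and 2 (267.46 and 345.68). Set against NF, HF-Sugar replicate 3 alone differed by 1.40.

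Cxcl9 (chr5:92321347-92328079, minus strand) varied more within groups. It was at 2.49, 1.67 and 5.03 RPKM in HF-Sugar, at 0.583, 0.613 and 1.44 RPKM in HF, at 0.53, 0.558 and 4.54 RPKM in NF-Sugar, and at 0.162, 1.77 and 0.975 RPKM in NF. HF-Sugar replicate 2 lay below NF replicate 2, both among the libraries that stand apart, and NF-Sugar replicate 3 was second only to HF-Sugar replicate 3. The means were 3.06 ± 1.75 RPKM in HF-Sugar and 0.969 ± 0.805 in NF (SD, n = 3 each), and the difference of 1.01 ± 0.50 had a limma adjusted p of 0.99. Without the 4 libraries that stand apart the difference was 1.61 ± 0.59 (limma adjusted p = 0.499).

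Ccl5 (chr11:83525778-83530518, minus strand), a product of T cells and natural killer cells, was the most abundant inflammatory member. It was at 12.6, 10.9 and 12.1 RPKM in HF-Sugar, at 10.6, 6.6 and 20.6 RPKM in HF, at 5.08, 10.2 and 14.6 RPKM in NF-Sugar, and at 5.45, 29.2 and 34.2 RPKM in NF. The HF-Sugar libraries lay close together (mean 11.9 ± 0.874 RPKM, SD), whereas NF held both the highest libraries of all and nearly the lowest, with a mean of 22.9 ± 15.4. The difference of -0.61 ± 0.58 had a limma adjusted p of 0.994, and it was -1.35 without NF replicate 1 and -0.20 without NF replicate 2.

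The homeostatic members overlapped between HF-Sugar and NF without exception. Ccl20 (chr1:83116766-83119167, plus strand), the ligand of Ccr6, was at 1.87, 0.899 and 5.49 RPKM in HF-Sugar, at 0.736, 0.716 and 1.22 RPKM in HF, at 1.12, 1.12 and 0.738 RPKM in NF-Sugar, and at 0.831, 2.38 and 1.31 RPKM in NF. Its highest value came from HF-Sugar replicate 3, and the difference from NF was 0.39 ± 0.37 with that library (limma adjusted p = 0.994) and -0.06 without it. Without the 4 libraries that stand apart it was 1.06 ± 0.34 (limma adjusted p = 0.479).

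Cxcl13 (chr5:95956951-95961068, plus strand) draws B cells with Cxcr5 into follicles and was the steadiest member beside Ccl25. It was at 4.21, 2.98 and 5.07 RPKM in HF-Sugar, at 3.78, 3.22 and 4.82 RPKM in HF, at 3.84, 3.53 and 3.59 RPKM in NF-Sugar, and at 3.08, 4.01 and 3.71 RPKM in NF. The difference of HF-Sugar from NF was 0.08 ± 0.17 (limma adjusted p = 0.998).

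Ccl19 (chr4:42754525-42756577, minus strand), the ligand that brings naive T cells and dendritic cells with Ccr7 into lymphoid tissue, was at 2.2, 1.26 and 0.921 RPKM in HF-Sugar, at 1.3, 0.853 and 0.856 RPKM in HF, at 1.55, 1.77 and 1.13 RPKM in NF-Sugar, and at 1.36, 1.01 and 1.24 RPKM in NF. Its difference was 0.10 ± 0.20 (limma adjusted p = 0.998), and -0.11 without HF-Sugar replicate 1. Its reads are uncertain, since the near copies Ccl19-ps1 (0 to 0.887 RPKM) and Ccl19-ps3 (0 to 1.07 RPKM) are listed beside it.

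Ccl25 (chr8:4325210-4360020, plus strand, overlapped by Elavl1 on the other strand) was at 49.1, 34.2 and 43.4 RPKM in HF-Sugar, at 56.7, 38.4 and 44.3 RPKM in HF, at 31.5, 44.5 and 40.6 RPKM in NF-Sugar, and at 53.6, 38.2 and 47.5 RPKM in NF. The lowest library of each group was the one that stands apart. The difference from NF was -0.19 ± 0.21 (limma adjusted p = 0.995). Ccl28 (chr13:119623819-119654359, plus strand), an epithelial chemokine that draws IgA plasma cells through Ccr10, was at 4.48, 5.46 and 9.03 RPKM in HF-Sugar, at 3.54, 5.31 and 5.19 RPKM in HF, at 8.24, 6.54 and 5 RPKM in NF-Sugar, and at 6.01, 8.37 and 5.27 RPKM in NF. HF-Sugar held its highest library and NF the next, and the difference was -0.12 ± 0.28 (limma adjusted p = 0.998). Values of Ccl25 in all 4 groups, and of Ccl28 in the 3 groups other than HF-Sugar, included fractions of a read.

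**Figure D2:**
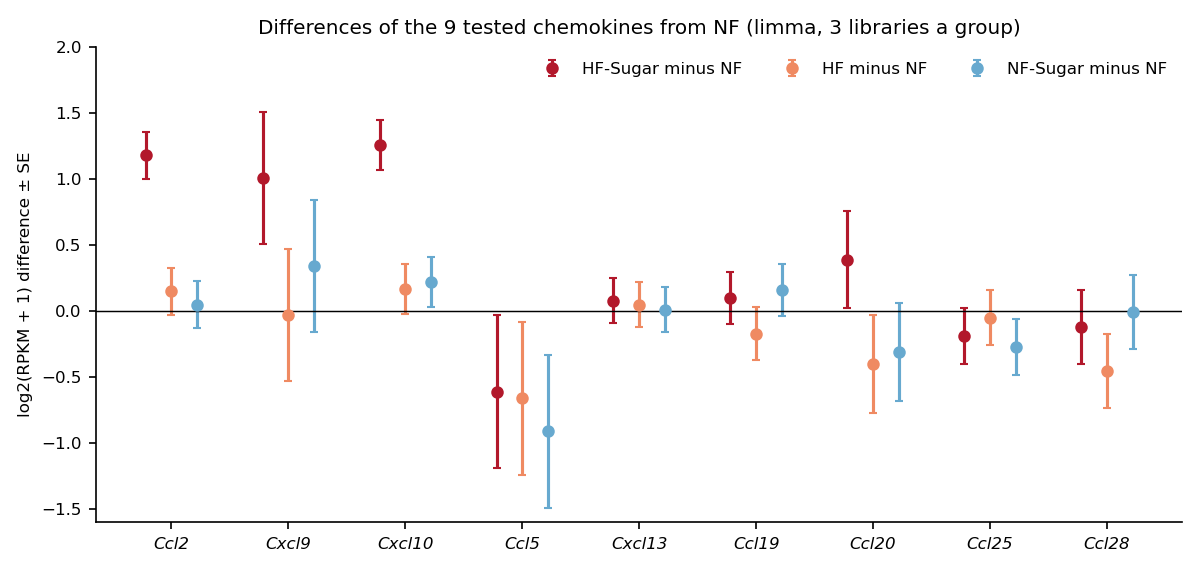
Difference in log2(RPKM + 1) from NF (vertical axis, with its SE from limma) for the 9 tested chemokines (horizontal axis), in HF-Sugar, HF and NF-Sugar, 3 libraries a group. Ccl2 (1.18) and Cxcl10 (1.26) lie above 0 in HF-Sugar (limma adjusted p = 0.195 each) and closer to it in HF and NF-Sugar. Cxcl9 (1.01) has an SE of 0.50. Ccl2 passed the filter through the HF-Sugar libraries alone, so a difference for it was built in. The Cxcl10 values of HF-Sugar replicates 1 and 2 were fractions of a read.

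Fat alone and sugar alone left the chemokines overlapping with NF. In HF against NF 0 of 9 tested members lay apart in either direction, while 5.37% of all genes were higher and 2.97% lower without overlap, and limma called 0% of genes (614 with an unadjusted p under 0.05, 0 of them members). In NF-Sugar against NF 0 of 9 members lay apart, against 3.22% of genes higher and 2.64% lower, and limma again called 0% (301 with an unadjusted p under 0.05, 0 of them members). Both comparisons and HF-Sugar against NF share the same 3 NF libraries.

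Sugar on top of the high-fat diet was read from HF-Sugar against HF. Here 3 of 9 tested members, Ccl2, Cxcl10 and Cxcl9, were higher in HF-Sugar without overlap, against 4.69% of all genes, and 0 of 9 were lower, against 5.15%. Without Ccl2 the higher count was 2 of 8. Limma called 0.00566% of genes, which was 1 gene, Il1b, with partly irregular HF-Sugar values (given with the cytokines), and 0 members. With the replicate number as a block, a possible pairing that the labels do not give (described with the processing), 0 genes were called. Ccl2 differed by 1.02 ± 0.18 (adjusted p = 0.354), Cxcl10 by 1.09 ± 0.19 (adjusted p = 0.354) and Cxcl9 by 1.04 ± 0.50 (adjusted p = 1), and their exact permutation p-values were 0.1. The lowest HF-Sugar library of Cxcl9 (1.67 RPKM) was close to the highest HF library (1.44 RPKM).

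Fat on top of the sugar drink was read from HF-Sugar against NF-Sugar. Ccl2 (1.12 ± 0.18, limma adjusted p = 0.226) and Cxcl10 (1.04 ± 0.19, limma adjusted p = 0.44) were the 2 of 9 members that were higher without overlap, against 4.29% of all genes, and 0 of 9 were lower, against 1.64%. Without Ccl2 the higher count was 1 of 8. Limma called 0.00566% of genes, again Il1b alone, and 0 members. Cxcl9 overlapped here through NF-Sugar replicate 3.

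Over both factors limma called 0% of genes for the main effect of fat, 0% for that of sugar and 0% for the interaction, with 463, 616 and 437 genes at an unadjusted p under 0.05. In each of these fits Ccl2 and Cxcl10 were the members with an unadjusted p under 0.05. Their interactions, named after their values were seen, were 0.97 ± 0.25 for Ccl2 (limma adjusted p = 1, unadjusted 0.00271) and 0.87 ± 0.26 for Cxcl10 (limma adjusted p = 1, unadjusted 0.00752). A larger difference between the high-fat groups than between the normal-fat groups was therefore not shown at the adjusted threshold for either gene. Ccl2 passed the filter through the HF-Sugar libraries alone, so a difference in these fits was also built into its passing.

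The receptors of these ligands were then read in the same libraries. Of 9 receptor genes 6 were tested, with Ccr2, Ccr3 and Ccr9 below the filter. In HF-Sugar against NF 0 of 6 passed, 6 had a difference above 0, with a median of 0.48 against -0.01 over all genes tested, and 3 were higher without overlap, against 7.21% of all genes. Ccr7, the receptor of Ccl19, was at 4.78, 2.96 and 3.45 RPKM in HF-Sugar, against 1.48, 1.54 and 1.32 RPKM in NF, a difference of 0.89 ± 0.16 (limma adjusted p = 0.61). HF and NF-Sugar libraries had 1.47 to 2.22 RPKM, so that all 3 HF-Sugar libraries were the highest. Its HF-Sugar values were fractions of a read (213.19, 160.59 and 111.21), and its values elsewhere were whole.

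Cxcr5, the receptor of Cxcl13 on B cells, was at 3.77, 2.15 and 3.58 RPKM in HF-Sugar, against 1.36, 1.31 and 1.03 RPKM in NF, a difference of 0.83 ± 0.24 (limma adjusted p = 0.99). Ccr6, the receptor of Ccl20, was at 0.941, 0.612 and 0.969 RPKM in HF-Sugar, against 0.253, 0.358 and 0.204 RPKM in NF, a difference of 0.50 ± 0.18 (limma adjusted p = 0.99). For both, HF libraries overlapped with HF-Sugar (Cxcr5 1.79 to 2.48 and Ccr6 0.516 to 0.707 RPKM in HF). Of the 10 tested markers of B cells and follicles 0 passed, 10 had a difference above 0 (median 0.34), 6 were higher without overlap, against 7.21% of all genes, and their summed level was 35.7 to 62.5 RPKM in HF-Sugar and 31.1 to 36.3 RPKM in NF. In HF against NF 0 of these 10 markers passed, 10 were above 0 (median 0.40) and 7 were higher without overlap, against 5.37% of all genes. The part of these cells in the receptor levels was not tested.

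The remaining receptors overlapped between HF-Sugar and NF or were too low to read. Cxcr3, the receptor of Cxcl9 and Cxcl10, was at 0.923, 1.08 and 0.816 RPKM in HF-Sugar, against 0.341, 0.945 and 1.03 RPKM in NF (0.14 ± 0.18, limma adjusted p = 0.995). Ccr2, the receptor of Ccl2, was at 0.158, 0.173 and 0.4 RPKM in HF-Sugar, against 0.0721, 0.204 and 0.3 RPKM in NF, and was not tested. Ccr1 differed by 0.14 ± 0.15 and Ccr10, the receptor of Ccl28, by 0.46 ± 0.29 (limma adjusted p = 0.995 and 0.99). Ccr9, the receptor of the abundant Ccl25, averaged 0.285 RPKM and Ccr3 0.0172 RPKM over 12 libraries. Of 5 atypical receptors, several of which bind chemokines and clear them, 4 were tested, 0 passed, 0 lay apart, and the median was 0.04.

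**Figure D3:**
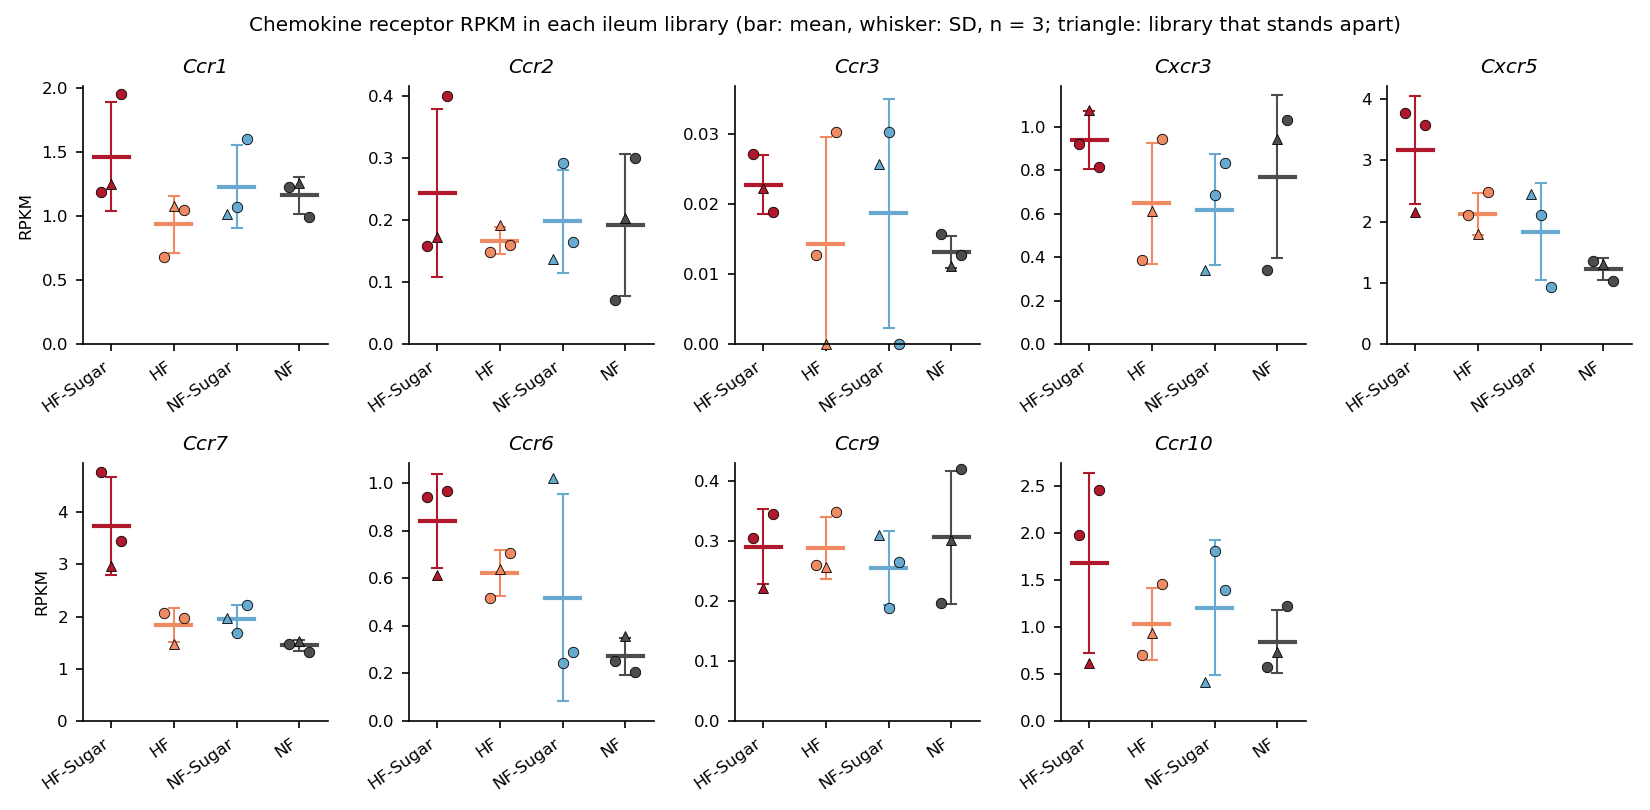
RPKM of the 9 chemokine receptors (vertical axes, linear, each panel with its own scale) in the 4 diet groups (horizontal axes), with 1 point per library, a bar for the mean, a whisker for the SD of 3 libraries and triangles for the libraries that stand apart. The 3 HF-Sugar points of Ccr7 (2.96 to 4.78) are above all others, and Ccr6 and Cxcr5 are above NF in HF-Sugar while overlapping with HF.

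Genes that induce chemokines or regulate their induction, a list of 17 with 14 tested, were mixed in HF-Sugar against NF. Of these 8 were above 0 and 6 below, with a median of 0.00, and 0 passed. The list also holds Nfkbia (-0.49) and Tnfaip3 (-0.08), which restrain NF-kB and are not inducers. Of the 14 tested, 4 were higher without overlap, against 7.21% of all genes, and 1 was lower, against 2.97%. Ifng, 1 of those 4, reached the filter in HF-Sugar alone, so its non-overlap was fixed by its passing. The values below are those of the 4 that were higher. Il1b, which encodes interleukin-1β, was at 2.88, 2.71 and 2.96 RPKM in HF-Sugar, against 0.484, 0.724 and 0.695 RPKM in NF (1.21 ± 0.14, limma adjusted p = 0.0735). Ifng, the gene of interferon-gamma, was at 0.773, 0.528 and 0.732 RPKM in HF-Sugar, against 0.0123, 0 and 0.149 RPKM in NF (0.67 ± 0.10, limma adjusted p = 0.195). Tnf was at 1.93, 0.746 and 0.912 RPKM in HF-Sugar, against 0.704, 0.51 and 0.531 RPKM in NF (0.41 ± 0.17, limma adjusted p = 0.99).

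These 3 cytokine genes had irregular HF-Sugar values. Ifng gave 22.54, 18.73 and 15.43 reads and Tnf 71.18, 33.47 and 24.34 reads in HF-Sugar, and Il1b gave 141.46 reads in replicate 2. The values of Il1b in HF-Sugar replicates 1 and 2, of Ifng in replicate 2 and of Tnf in replicate 1 also carried 7 digits. Il1b and Tnf were whole in the other 9 libraries, and Ifng also gave fractions of 0.62 and 4.66 reads in NF replicates 1 and 3. Like Ccl2, Ifng passed the filter only through the HF-Sugar libraries. Lta, which encodes lymphotoxin-alpha, was at 0.706, 0.66 and 1.51 RPKM in HF-Sugar, against 0.557, 0.604 and 0.569 RPKM in NF (0.25 ± 0.14, limma adjusted p = 0.99).

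Of 16 tested targets of interferon-gamma other than Cxcl9 and Cxcl10, 0 passed in HF-Sugar against NF. All 16 had a difference above 0, with a median of 0.67 against -0.01 over all genes, and 1, Gbp6, was higher without overlap, where 7.21% of all genes were. Gbp6, an interferon-induced guanylate-binding protein, was at 1, 1.38 and 3.55 RPKM in HF-Sugar, against 0.187, 0.915 and 0.708 RPKM in NF (0.79 ± 0.34, limma adjusted p = 0.99). Against HF the same list had a median of 0.85, with 0 called and 12 of 16 genes higher without overlap, against 4.69% of all genes. In HF-Sugar against NF-Sugar its median was 0.57, with 15 of 16 above 0 and 0 called. There 0 of 16 were higher without overlap, against 4.29% of all genes. In HF against NF 13 of 16 were below 0 (median -0.16) and in NF-Sugar against NF 13 of 16 were above 0 (median 0.10), and 0 were called in both.

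Other chemokines, 27 genes of which 16 were tested, had a median of 0.10 in HF-Sugar against NF, with 10 above 0, 6 below and 0 called. Without overlap 3 were higher, Ccl4, Ccl12 and Cx3cl1, against 7.21% of all genes, and 1 was lower, Cxcl14, against 2.97%. Cxcl14, an epithelial chemokine, was lower at 7.91, 9.15 and 9.63 RPKM in HF-Sugar, against 11.5, 10.1 and 10.7 RPKM in NF (-0.30 ± 0.16, limma adjusted p = 0.99). Ccl4, an inflammatory chemokine, was higher at 0.807, 0.94 and 1.02 RPKM in HF-Sugar, against 0.311, 0.661 and 0.69 RPKM in NF (0.30 ± 0.16, limma adjusted p = 0.99). Ccl12, which in the mouse also draws monocytes through Ccr2, was at 0.413, 0.68 and 0.343 RPKM in HF-Sugar, against 0.287, 0.338 and 0.154 RPKM in NF (0.21 ± 0.13, limma adjusted p = 0.99). Cx3cl1, the membrane-bound chemokine, was at 45.8, 45.2 and 47.8 RPKM in HF-Sugar, against 41, 38.7 and 38 RPKM in NF (0.18 ± 0.18, limma adjusted p = 0.994).

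**Figure D4:**
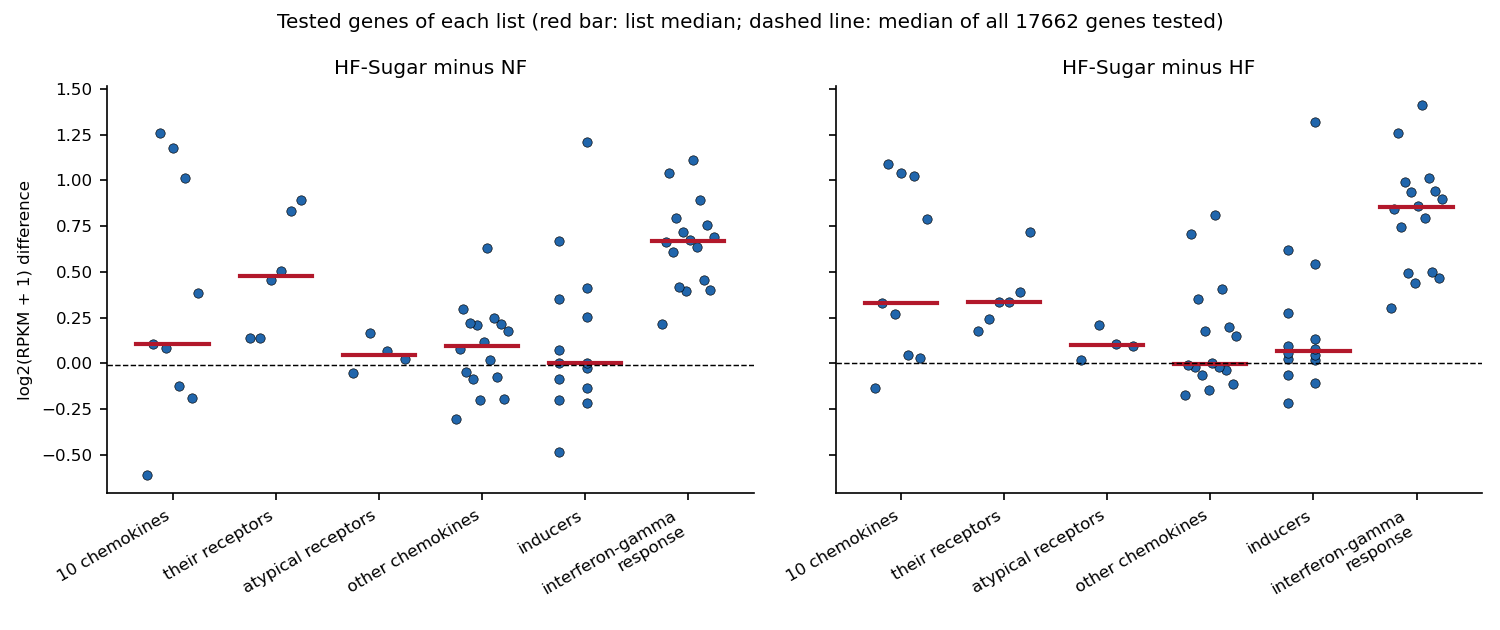
Difference in log2(RPKM + 1) (vertical axis) for each tested gene of 6 gene lists (horizontal axis) in HF-Sugar against NF (left) and HF-Sugar against HF (right), with a red bar for the list median and a dashed line for the median of all 17662 genes. The interferon-gamma response genes lie above 0 in both panels (medians 0.67 and 0.85), while the chemokines spread on both sides of 0 around medians of 0.10 and 0.33.

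Markers of the cells that chemokines attract or that make them were read beside these results. The macrophage and dendritic cell markers summed to 139 to 281 RPKM in HF-Sugar and 135 to 210 RPKM in NF, and 8 of 8 tested markers had a difference above 0 (median 0.17), 0 of them without overlap. The T-cell markers summed to 28.4 to 47 RPKM in HF-Sugar and 16.5 to 49.9 RPKM in NF, with 5 of 10 above 0 and 0 called. Without overlap 1 of 10 was higher, Cd8a (0.51 ± 0.16, limma adjusted p = 0.99), against 7.21% of all genes, and 0 were lower. Neutrophil markers were near 0 in all groups (sums of 0.688 to 2.04 RPKM), Elane was at 0 in at least 6 libraries, and 1 of 7 was tested. Plasma cell markers were above 0 for 4 of 6 genes (median 0.37), 0 of them without overlap. For follicle-associated epithelium 5 of 6 were above 0 (median 0.07), and 2 were higher without overlap, against 7.21% of all genes. For lymphoid stroma 1 of 5 was above 0 (median -0.05), with 0 lying apart. In these 3 lists 0 passed. Epithelial markers were lower in HF-Sugar for 7 of 7 genes (median -0.26), 3 of them without overlap, against 2.97% of all genes, and 0 passed. They were also below NF for 7 of 7 genes in NF-Sugar (median -0.20) and for 6 of 7 in HF (median -0.10). The part of cell composition in the chemokine differences was not tested.

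Members were compared with each other over the 12 libraries in all 45 pairs. By Pearson's r 0 pairs passed at an adjusted permutation p under 0.05 over the 45 pairs, while 6 had an unadjusted p under 0.05, and by Spearman's rho 0 passed and 5 had an unadjusted p under 0.05. The highest were Ccl2 with Cxcl10 (permutation p = 0.00156, adjusted 0.0702), Cxcl13 with Ccl20 and Cxcl9 with Cxcl10. Since the HF-Sugar libraries form a cluster of their own for Ccl2 and Cxcl10, that pair was read in the other 9 libraries, where r was 0.52 (permutation p = 0.149). With deviations from the group means its r over 12 libraries was 0.11 (permutation p = 0.736).

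Cxcl9 and Cxcl10 had r = 0.72 (permutation p = 0.0088, adjusted 0.132) and rho = 0.77 (permutation p = 0.00515, adjusted 0.147), with r = 0.79 after leaving out the 2 libraries farthest from the median of Cxcl9 and 0.64 for deviations from the group means (permutation p = 0.025). Without the 4 libraries that stand apart r was 0.73 (permutation p = 0.0376). Cxcl13 and Ccl20 had r = 0.71 (permutation p = 0.00381, adjusted 0.0857) and rho = 0.73 (permutation p = 0.00983, adjusted 0.147), with r = 0.78 after leaving out the 2 libraries farthest in Cxcl13, 0.65 without the 4 libraries that stand apart (permutation p = 0.0518) and 0.83 for deviations from the group means (permutation p = 0.00062). Deviations sum to 0 within each group, yet the permutation moved them freely between groups. All permutation p-values given for deviations are therefore too small.

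**Figure D5:**
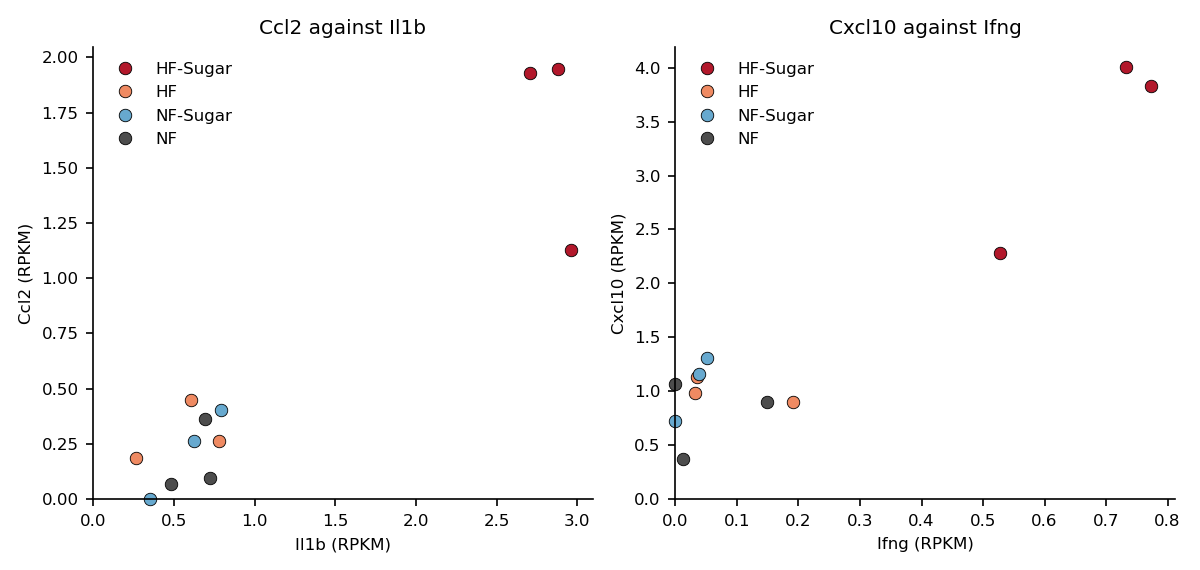
RPKM of Ccl2 against Il1b (left) and of Cxcl10 against Ifng (right), both axes linear, where each point is a library and the color gives its diet. The 3 HF-Sugar libraries lie apart at the upper right in both panels (Ccl2 1.13 to 1.95, Il1b 2.71 to 2.96 RPKM), and the other 9 libraries lie lower on both axes. For Ccl2 and Ifng, HF-Sugar values above all others were built into their passing of the filter.

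The 3 tested genes most like each tested member were found by Pearson's r over 12 libraries, as a description, since each was the highest of 17662 genes and the libraries share diet and depth. For Ccl2 they were Il1b (r = 0.93), Ifng (0.92) and Tas1r3 (0.92), the last a subunit of the sweet and umami taste receptors, and r was 0.39, 0.45 and 0.40 in the 9 libraries outside HF-Sugar. For Cxcl10 they were Irf8 (0.93), a transcription factor of the interferon response and of dendritic cells, Il1b (0.92) and Ifng (0.91), with 0.68, 0.37 and -0.06 outside HF-Sugar. Both Ccl2 and Ifng reached the filter in HF-Sugar alone, so a high r between them over 12 libraries was largely built into their passing. Tas1r3 in all 3 HF-Sugar libraries and Irf8 in 2 of them also held fractions of a read and were whole elsewhere.

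For the other members the likeness did not rest on HF-Sugar. Cxcl9 was closest to Gm20496, Gm43302 and the interferon-induced nucleic acid sensor Zbp1 (0.95 each, and 0.93, 0.97 and 0.94 outside HF-Sugar). Ccl5 was closest to Gzma (0.90), which encodes a granzyme of cytotoxic lymphocytes, Lck (0.89), a kinase of T-cell receptor signaling, and Gm10075 (0.88), with 0.98, 0.91 and 0.92 outside HF-Sugar. Ccl20 was closest to Arl14ep (0.95), Haus3 (0.93) and Srgn (0.91), Ccl28 to Amd2 (0.93), the chemokine Ccl9 (0.93) and Utp23 (0.89), and Ccl19 to Naa35 (0.96), Cactin (0.89) and B9d2 (0.84). Ccl25 was closest to Gm9843 (0.95) and the mitochondrial carriers Slc25a10 (0.92) and Slc25a3 (0.92), and Cxcl13 to Lzic (0.89), Mrpl49 (0.86) and Uqcrc2 (0.85).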

How the data were processed

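Total RNA of each ileum was isolated separately. Samples with an RNA integrity number over 8 entered the study, libraries were made with an Ion Total RNA-Seq kit, and the authors used STAR within Partek Flow for alignment to mm10. The deposited values are RPKM, as the authors gave them, in 1 table whose columns were identical to 12 of 12 per-sample files. The labels and the methods differ on RNA input. Of 44231 names, 26 bare numbers were left out, and 2 columns without a label were not used. Depth was recovered from the steps of low RPKM values (84.5% of values under 50 reads were whole within 0.03, with exon lengths of GENCODE on GRCm38), after a test on simulated data (error below 0.2%).

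RPKM was scaled by trimmed mean of M values (30% and 5% trimmed) and log2(RPKM + 1) was fitted over all 4 groups in R 4.3.3 with limma 3.58.1 (trend, 8 residual degrees of freedom). RPKM printed per library is unscaled, and non-overlap was read from it. Count tests were not run, as the files hold RPKM, and limma-voom on recovered reads was an alternative. Simulated for HF-Sugar against NF with 17662 genes, the fit recovered 60% of the genes with a log2 change of 1 and 84% of those with 2. The simulation drew each gene independently, changed a preset number of genes and left out the variation that the real libraries share. These percentages are therefore a check of the code and not the power of the fit on these data. Samples are separate mice. Same-numbered libraries deviated together from their group means for HF-Sugar and NF (correlations of 0.192, 0.512 and 0.225) and for HF-Sugar and HF (0.488, 0.557 and 0.13). There the numbers were treated as a possible pairing, from the data alone, as the labels give none. For the other 3 pairs the rule (over 0.1 in each) did not hold. The library that stands apart is replicate 2 in HF-Sugar, HF and NF but replicate 1 in NF-Sugar. The part of those libraries in these correlations was not tested.

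All 10 members are named, with log2 differences for tested members in HF-Sugar against NF and elsewhere for those without overlap. Listed genes are named where they are receptors of the members or lie apart between HF-Sugar and NF (up to 4 a list, smallest p first), and the 3 genes most like each member are named by r. 1 listed receptor is not reported here. The members and lists were chosen with earlier results of these data known. Permutation p-values of correlations used 100000 resamples. Python 3.11.15, numpy 2.4.6, pandas 2.3.3 and matplotlib 3.10.9 were used. Alternatives were other scalings, pseudocounts and filters, the replicate block, the compared groups alone, limma-voom, the 4 libraries that stand apart left out or as a covariate, and each library left out. The checks of Ccl2 with no filter, of Cxcl10 without its irregular values, of irregular reads and of the 9 libraries outside HF-Sugar were added after seeing the data.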

Additional observations from a re-analysis of the deposited data

How the results depend on the processing

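No member was called under any setting, with 0 of the tested members past the threshold in all 8 comparisons. Of the members' directions in HF-Sugar against NF, 4 turned when a library was left out: Cxcl13 (-0.01 to 0.22), Ccl19 (-0.11 to 0.29), Ccl20 (-0.06 to 0.76) and Ccl28 (-0.35 to 0.11). Ccl28 also turned without the 4 libraries that stand apart (0.15). Over the same omissions Ccl2 stayed at 1.13 to 1.25, Cxcl10 at 1.10 to 1.43 (limma adjusted p of 0.159 to 1) and Cxcl9 at 0.68 to 1.36. When an HF-Sugar library was left out Ccl2 fell below the filter, and its difference of means with no filter was then 1.08 to 1.36. Other settings gave 1.05 (without the 4 libraries that stand apart, with no filter and no test) to 3.47 for Ccl2 (limma adjusted p of 0.243 to 0.998 where tested) and 1.25 to 2.18 for Cxcl10 (0.233 to 0.999).

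Counts of called genes over the whole table moved with the setting. With no filter 5 genes were called in HF-Sugar against NF, 4 in HF against NF and 4 in NF-Sugar against NF. The 1 gene called in HF-Sugar against HF became 0 with pseudocounts of 0.1 and 0.5, no filter, the replicate block (paired by number), the compared groups alone, limma-voom, the libraries that stand apart left out, and the cluster as covariate. The 1 gene called in HF-Sugar against NF-Sugar became 0 under those settings and under no further scaling and median-of-ratios scaling. With 1 library left out, 0 to 2 genes were called in HF-Sugar against HF and 0 to 1 in HF-Sugar against NF, HF against NF, NF-Sugar against NF, HF-Sugar against NF-Sugar, the sugar main effect and the interaction. Of the 45 member pairs, 1 passed instead of 0 with a pseudocount of 0.1 and without the 4 libraries (Ccl2 with Cxcl10), and 1 for deviations from the group means (Cxcl13 with Ccl20). By Spearman's rho 1 passed instead of 0 with no further scaling (Ccl2 with Cxcl10) and 1 for deviations from the group means (Cxcl13 with Ccl20). The passes for deviations rest on permutation p-values that are too small, as given with the pairs, so no conclusion is drawn from them. The causes of these changes were not tested. Depth limits Ccl7 (at most 6 reads) and Ccl2 outside HF-Sugar, and 3 libraries a group cannot reach an exact p under 0.1.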

Other observations

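Among the chemokines outside the 10 members, the most abundant were Ccl6, at 68.9 RPKM over 12 libraries, and Cx3cl1, at 44.9 RPKM, at or above the level of Ccl25 (43.5 RPKM), while the neutrophil-attracting Cxcl1, Cxcl2, Cxcl3 and Cxcl5 averaged 0.069, 0.0227, 0.0074 and 0.108 RPKM and were not tested. Ccl21a, a second ligand of Ccr7, averaged 16.7 RPKM and was at 10.9, 21.1 and 21.2 RPKM in HF-Sugar, against 14.5, 17.7 and 18.9 RPKM in NF (-0.05 ± 0.27, limma adjusted p = 1).

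In HF-Sugar against HF 2 further chemokines had an unadjusted p under 0.05, and their values were looked at for that reason. Xcl1, a product of cytotoxic lymphocytes that attracts cross-presenting dendritic cells, was at 3.31, 1.68 and 3.52 RPKM in HF-Sugar, against 0.877, 2.03 and 0.662 RPKM in HF (0.81 ± 0.29, limma adjusted p = 1). Ccl12 was at 0.413, 0.68 and 0.343 RPKM in HF-Sugar, against 0.156, 0 and 0.184 RPKM in HF (0.41 ± 0.13, limma adjusted p = 1), and its NF-Sugar libraries, at 0.548, 0.83 and 0.732 RPKM, overlapped with HF-Sugar.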
